A study of Homo sapiens with 20 samples.

Results

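The genes described here are 47 DNA replication and S-phase genes, chosen by name as the genes of replication origins, helicase, polymerases, clamp, nucleotide supply and chromatin assembly, out of 60271 genes in the count tables. All 47 were found and passed the filter on low counts, which 16522 genes passed. They were followed in MDA-MB-468 cells, an established human breast cancer cell line of the triple negative type that carries very high levels of the EGF receptor. RNA-seq was made from 20 libraries in 5 groups of 4 biological replicates: untreated control cells, and cells given 50 ng/mL epidermal growth factor (EGF) for 12, 24, 48 or 72 h. Every group, the control included, was seeded, deprived of serum and harvested together with the others, so that the groups share serum deprivation and time in culture and differ in how long EGF was present. EGF was used to induce an epithelial-mesenchymal transition. The libraries come from 1 cell line, and what a replicate shares with the others of its group (a passage, a plate) is not given in the labels.

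Replication is prepared in G1 phase, when the origin recognition complex, CDC6 and CDT1 load the ring of MCM2 to MCM7 onto DNA. In S phase CDC45 and the GINS complex turn this ring into the active helicase, primase and the polymerases copy the strands behind it, PCNA clamps the polymerases to DNA, and ribonucleotide reductase and the thymidylate enzymes make the building blocks. Many of these genes are known targets of E2F transcription factors, which are released when cells leave G1, and in MDA-MB-468 cells EGF is known both to signal through ERK and, at high dose, to slow growth.

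The E2F recognition letters were looked for in the window from 250 bases before to 50 bases after each gene's start, with the sequences and starts taken from RefSeq on GRCh38.p14. A window was matched for 41 of the 47 members. The letters searched were TTTGGCGC, TTTCCCGC, TTTCGCGC and TTTGCCGC on both strands, which can overlap each other where both strands match. They were present in 18 of 41 members (43.9%), beside 602 of 11369 matched genes that passed the filter (5.3%) and 3.33% of all 27305 windows. CCAAT, the letters of the box bound by NF-Y, was in 56.1% of the members and 36.7% of the matched genes that passed, and TTTGAA, the letters of the cell cycle genes homology region of mitotic promoters, was in 2.44% and 10.1%. Shown here are the 120 bases directly before the start for 4 members with the E2F letters and for 2 members without them that had wide swings in level, 5′ to 3′ along the gene, with the E2F letters in capitals.
CDT1, chr16:88803669-88803788, plus strand: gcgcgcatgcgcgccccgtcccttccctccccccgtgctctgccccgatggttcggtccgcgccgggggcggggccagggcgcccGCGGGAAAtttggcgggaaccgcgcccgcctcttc
MCM6, chr2:135876444-135876563, minus strand: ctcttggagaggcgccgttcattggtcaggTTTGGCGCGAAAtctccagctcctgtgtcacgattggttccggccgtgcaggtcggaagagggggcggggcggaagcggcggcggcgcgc
POLA2, chr11:65261842-65261961, plus strand: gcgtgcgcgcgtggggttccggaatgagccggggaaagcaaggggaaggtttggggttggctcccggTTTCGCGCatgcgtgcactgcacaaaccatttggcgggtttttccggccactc
RFC3, chr13:33818029-33818148, plus strand: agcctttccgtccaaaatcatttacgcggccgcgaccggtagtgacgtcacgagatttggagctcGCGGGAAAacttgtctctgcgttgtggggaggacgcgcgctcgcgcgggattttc
PRIM1, chr12:56752324-56752443, minus strand: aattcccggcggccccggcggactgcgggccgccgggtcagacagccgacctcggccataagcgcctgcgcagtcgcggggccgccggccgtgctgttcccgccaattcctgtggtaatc
TK1, chr17:78187205-78187324, minus strand: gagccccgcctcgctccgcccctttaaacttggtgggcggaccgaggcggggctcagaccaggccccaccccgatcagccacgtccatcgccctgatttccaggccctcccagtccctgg
In MCM6 the letters of the plus and the minus strand overlap, and a further overlapping pair lay beyond the stretch shown. A match is a description of the letters and not of a bound site. Only these exact spellings were searched, so a window without them may hold an E2F site spelled otherwise.

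Depth and identity were checked over the whole series. The total of the estimated counts ran from 15611961 to 25856953 per library, and mitochondrial genes held 7.69% to 16.9% of it. The scaling factors by TMM, a trimmed mean over genes, were lowest at 12 h (0.862 to 0.898) and highest at 48 h (1.05 to 1.09). Of 8 epithelial markers 8 passed the filter, with a summed level of 5094 to 5587 CPM (counts scaled to a common depth, by TMM) in the control and 20913 to 21781 at 12 h, led by EGFR and KRT18. PGR had no count in any library, and the medians of ESR1 (2.30 to 5.73 CPM) and ERBB2 (8.70 to 21.7 CPM) were low in every group. Of 8 markers of leukocytes, endothelium and fibroblasts 3 passed. The summed level of the 8 was 8.17 to 10.9 CPM in the control and 40.0 to 46.3 at 72 h, with medians of CD68 at 1.11 and 27.5, and the part of these genes in the results was not tested. COL1A1 and PECAM1 also passed, with medians of 5.93 and 2.19 CPM in the control and 13.9 and 3.02 at 72 h. PTPRC, CD3E, VWF, COL1A2 and PDGFRB did not pass and had at most 9 counts in any library. In bulk RNA, fewer cells in S phase and less of an RNA per cell cannot be told apart.

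Among the 5 groups, 44 of the 47 members differed (edgeR's quasi-likelihood test, p adjusted by Benjamini-Hochberg for the 16522 genes and under 0.05), where 88.6% of all genes tested did. Against the control, 31 members passed at 12 h, 9 higher and 22 lower. For all genes tested the shares were 69.4% either way, 32.9% higher and 36.5% lower. At 24 h 26 members passed, 15 higher and 11 lower (58.8%, 29.2% and 29.6% of all genes). At 48 h 20 passed, 5 higher and 15 lower (45.8%, 24% and 21.8%), and at 72 h 29, 9 higher and 20 lower (61.6%, 30.6% and 31%). The share of members called lay near that of all genes at every time. Few of their changes were large, with 7, 7, 0 and 7 members past 1.5-fold at 12, 24, 48 and 72 h (14.9%, 14.9%, 0% and 14.9%), where the shares of all genes were 46.6%, 33.7%, 22% and 35.8%. All genes include some with fewer counts than any member, and shares among genes of matched level were not computed. The median log2 fold change of the members was -0.14, 0.023, -0.11 and -0.16 at the 4 times, and that of all genes was -0.054, -0.0071, 0.0099 and -0.0090. All 4 comparisons share the same 4 control libraries. With scaling by library size alone, the split of higher and lower was 4 and 35 at 12 h, 9 and 16 at 24 h, and 8 and 29 at 72 h, and with upper quartiles it was 5 and 32 at 12 h. The median of all genes shifts with the scaling: by library size alone it was -0.34 at 12 h, -0.15 at 24 h, 0.18 from 12 to 24 h and 0.17 from 24 to 48 h, and by upper quartiles -0.22 at 12 h. Relative to the median of all genes, that of the members at 12 h was -0.087 with TMM and -0.088 with library size alone. It was -0.16 with at least 10 counts in every library, -0.11 in a fit of only the 8 libraries compared and -0.22 with factors per gene (each count over the authors' normalised value, where no library held under 20 counts).

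Single calls against the control also turned on the scaling. Scaling by library size alone lost the calls of CDC6 (-0.046), MCM3 (0.037), MCM5 (-0.030), GINS3 (0.087) and POLE (-0.011) at 12 h, MCM3 (0.098), MCM5 (0.19), GINS2 (0.040), POLA2 (0.10), POLE (0.21) and RPA1 (-0.012) at 24 h and ORC1 (0.11) at 72 h. Under that scaling ORC1, ORC6, GMNN, MCM4, MCM6, GINS2, MCM10, POLD3, RFC2, RPA1, CHAF1A, CHAF1B and UNG, not called at 12 h with TMM, were called lower there. With upper quartiles the calls of CDC6, MCM3, MCM5 and POLE at 12 h, GINS2, POLA2 and RPA1 at 24 h, MCM7 at 48 h and ORC1 at 72 h were lost. Factors per gene lost the calls of CDC6 (0.19), MCM3 (0.20), MCM5 (0.29), GINS3 (0.15), POLA1 (-0.17), POLE (0.17), RFC4 (-0.21), RFC5 (-0.092) and RRM2 (-0.046) at 12 h. At 24 h they lost MCM3 (0.19), POLA2 (0.26), POLE (0.26) and RFC5 (-0.21). At 48 h they lost CDT1 (0.34), MCM7 (-0.20), POLA1 (-0.11), RFC1 (0.17), RFC4 (0.22) and RRM2 (0.053). At 72 h they lost ORC1 (0.20), MCM4 (-0.25), GINS3 (0.35), POLA1 (-0.26) and RFC5 (-0.18). With DESeq2's size factors the call of RFC1 at 48 h was the one lost.

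**Figure D1:**
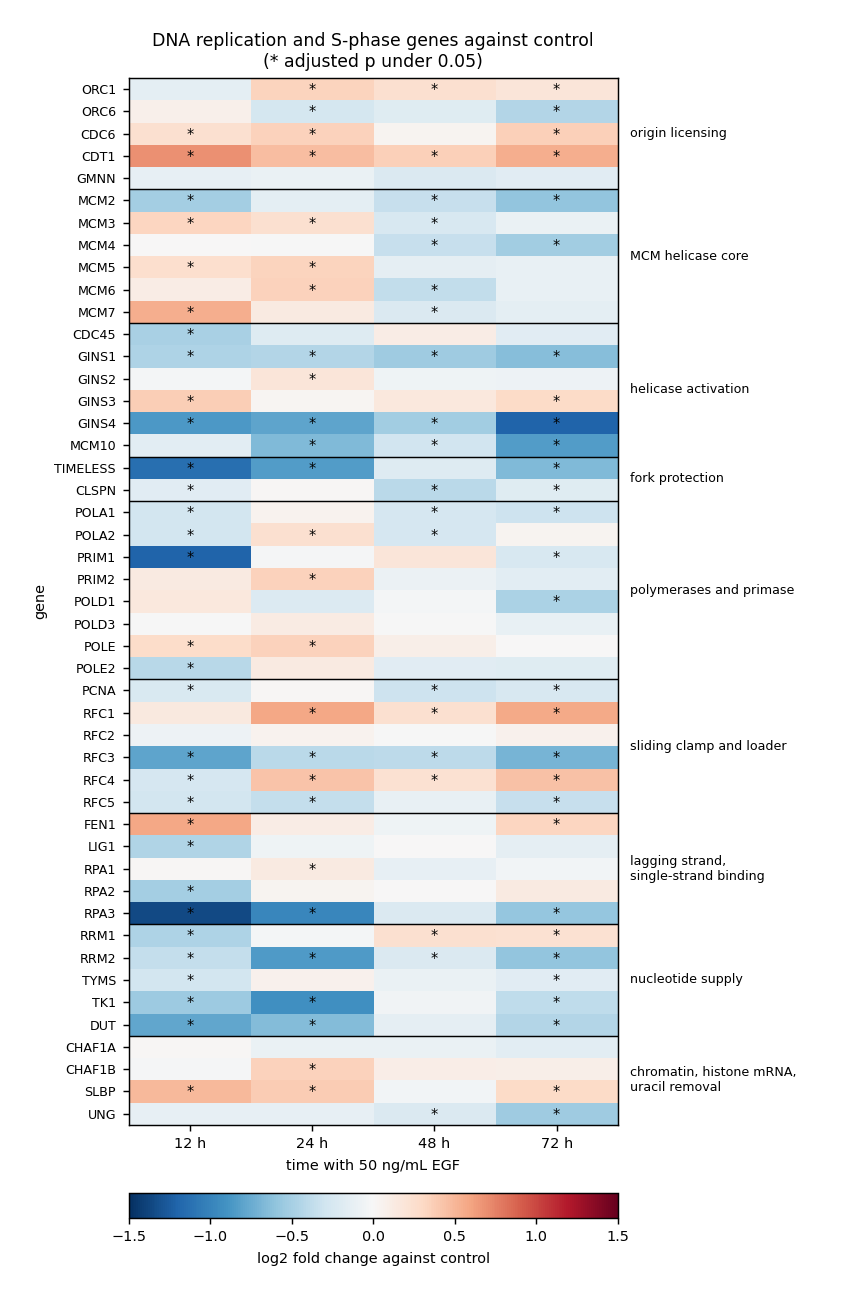
Log2 fold change of the 47 members (rows, grouped by role) against the control at each time with EGF (columns), with blue lower, red higher and an asterisk where the adjusted p was under 0.05. PRIM1 and RPA3 were lowest at 12 h and GINS4 at 72 h. The 6 rows of MCM2 to MCM7 stood lower at 48 h than at 24 h, with 5 of these steps past the threshold, and MCM10 stood higher.

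Between successive times, most calls of members were higher from 12 to 24 h and lower in the next steps. From 12 to 24 h 29 passed, 22 higher and 7 lower, where 53.7% of all genes passed, 27.9% higher and 25.9% lower. From 24 to 48 h 31 passed, 11 higher and 20 lower (50.2%, 25.9% and 24.3% of all genes), and from 48 to 72 h 23 passed, 8 higher and 15 lower (35.7%, 17.9% and 17.9%). With library size alone the split from 24 to 48 h was 13 and 9. For 17 members the calls from 24 to 48 h and from 48 to 72 h had opposite signs, which 21.2% of all genes showed. Of these, 10 were at 48 h above both neighbours, CDC45, GINS4, MCM10, TIMELESS, PRIM1, RFC5, RPA3, RRM2, TK1 and DUT, and 7 were below both, CDC6, MCM6, CLSPN, POLA2, RFC1, RFC4 and SLBP. With library size alone all 10 kept this shape, but of the 7 only SLBP did. With factors per gene 9 members had such calls, above both for DUT, GINS4, RRM2 and TIMELESS and below both for MCM6, POLA2, RFC1, RPA1 and SLBP. Leaving out 1 library was done for the members whose values per library are given, and ended such a call for 4 of them. PRIM1 lost the call from 24 to 48 h without 24 h replicate 2 (0.18), 24 h replicate 3 (0.19), 24 h replicate 4 (0.17), 48 h replicate 3 (0.17) or 48 h replicate 4 (0.14). RFC4 lost it in that step without 24 h replicate 4 (-0.18), 48 h replicate 1 (-0.20) or 48 h replicate 2 (-0.15), and from 48 to 72 h without 48 h replicate 1 (0.22), 48 h replicate 2 (0.16), 72 h replicate 3 (0.21) or 72 h replicate 4 (0.18). RPA3 lost the call from 48 to 72 h without 72 h replicate 1 (-0.30), and TK1 without 48 h replicate 1 (-0.27), 48 h replicate 2 (-0.23), 72 h replicate 1 (-0.34), 72 h replicate 2 (-0.25) or 72 h replicate 3 (-0.33).

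**Figure D2:**
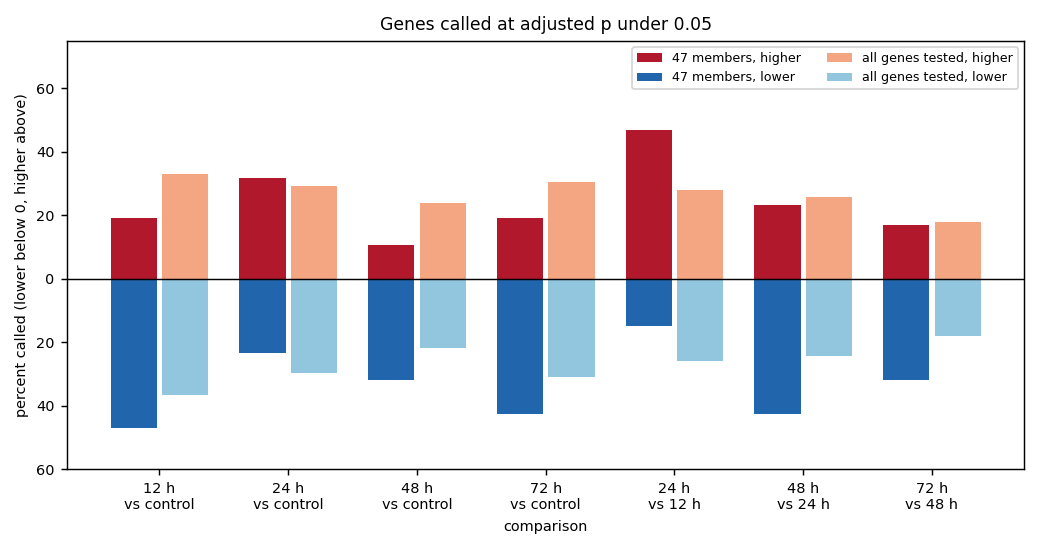
Percent of the 47 members (dark bars) and of all 16522 genes tested (light bars) called at an adjusted p under 0.05 in each comparison, higher above the 0 line and lower below it. Members were called lower more often than higher in 5 of the 7 comparisons, and higher more often at 24 h against the control (15 against 11) and from 12 to 24 h (22 against 7).

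The origin licensing genes had calls of both signs. CDT1, which brings the MCM ring to the origin, was the single member called higher at all 4 times. The values of CDT1 were 27.5, 36.6, 22.5 and 30.4 CPM in the control libraries, 50.4, 51.7, 41.4 and 44.8 at 12 h, 38.6, 42.8, 41.03 and 38.9 at 24 h, 42.1, 46.8, 30.1 and 31.8 at 48 h, and 46.8, 34.99, 44.1 and 45.3 at 72 h. Every library at 12 h lay above every control library and the log2 fold change was 0.68 ± 0.14 (± the standard error, as for all log2 fold changes; adjusted p = 0.000124, edgeR), and at 24 h it was 0.46 ± 0.14 (adjusted p = 0.00627). Its groups at 48 and 72 h overlapped the control, and the call at 48 h ended without control replicate 1 (0.33), control replicate 3 (0.25), control replicate 4 (0.38), 48 h replicate 1 (0.31) or 48 h replicate 2 (0.24). CDC6, the loader that acts beside CDT1, stood at 79.7, 64.3, 84.8 and 73.7 CPM in the control libraries, 82.5, 90.1, 91.03 and 93.1 at 12 h, 95.6, 98.4, 93.3 and 98.5 at 24 h, 78.6, 70.2, 83.99 and 77.6 at 48 h, and 95.3, 99.4, 94.8 and 98.7 at 72 h. It rose at 24 h (0.35 ± 0.073) and at 72 h (0.36 ± 0.073), with no overlap with the control at these times, and was back among the control values at 48 h. Its rise at 12 h (0.24) depended on the scaling, with -0.046 by library size alone. ORC1, the largest subunit of the origin recognition complex, was called higher at 24, 48 and 72 h (0.34, 0.25 and 0.18).

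ORC6, the smallest subunit of the same complex, went the other way at the last time. ORC6 measured 18.5, 17.4, 21.4 and 17.1 CPM in the control libraries, 18.5, 18.2, 20.7 and 20.9 at 12 h, 14.6, 16.7, 15.8 and 15.1 at 24 h, 14.6, 16.8, 18.1 and 15.8 at 48 h, and 12.2, 13.4, 14.4 and 15.3 at 72 h. At 72 h all 4 libraries lay under all control libraries (-0.44 ± 0.094, adjusted p = 0.000308), and its call at 24 h ended without control replicate 3 (-0.18), 24 h replicate 1 (-0.23) or 24 h replicate 4 (-0.24). GMNN, geminin, the inhibitor of CDT1 that builds up in S and G2, stood at 160.5, 121, 193 and 159 CPM in the control libraries, 143, 132, 160.3 and 145 at 12 h, 139.9, 145, 139.8 and 167 at 24 h, 124, 117, 155 and 147 at 48 h, and 133, 149, 141 and 142 at 72 h. Its groups overlapped throughout and with TMM it was called at no time, with adjusted p between 0.0994 and 0.453 against the control. At 12 h it was called lower by library size alone (-0.41) and by upper quartiles (-0.28). The ratio of CDT1 to its inhibitor was not tested.

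Most subunits of the MCM helicase core fell between 24 and 48 h. Against the control, 3 of the 6 subunits were higher and 1 lower at 12 h, 3 higher at 24 h, 5 lower at 48 h and 2 lower at 72 h. The shares called were 66.7%, 50%, 83.3% and 33.3%, beside 69.4%, 58.8%, 45.8% and 61.6% of all genes. In the step from 24 to 48 h 5 of 6 fell and none rose, where 24.3% of all genes fell and 25.9% rose. The count of 5 was the same with library size alone, with upper quartiles, with DESeq2's size factors and with factors per gene. The counts against the control turned with the scaling: by library size alone they were 1 higher and 3 lower at 12 h, 1 and 1 at 24 h, and none and 5 at 72 h. MCM6, a subunit of the ring with the letters for E2F shown above, stood at 127, 105, 130.01 and 114 CPM in the control libraries, 123, 124, 134 and 133 at 12 h, 143, 149, 158 and 155 at 24 h, 92.3, 79.9, 99.2 and 96.7 at 48 h, and 107, 117, 107 and 109 at 72 h. All libraries at 24 h lay above all libraries of the other groups, and all libraries at 48 h lay under them. From 24 to 48 h MCM6 fell by 0.72 ± 0.074 on the log2 scale (adjusted p = 3.48e-08), and from 48 to 72 h it rose by 0.26 (adjusted p = 0.00897), a rise that was 0.17 and short of the threshold by library size alone. Against the control it was higher at 24 h (0.35) and lower at 48 h (-0.37).

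MCM7 stood at 47.6, 48.6, 40.3 and 45.3 CPM in the control libraries, 69.5, 65.1, 63.7 and 66.5 at 12 h, 46.5, 50.7, 51.03 and 51.7 at 24 h, 43.3, 43.5, 35.4 and 34.99 at 48 h, and 43.01, 40.4, 38.4 and 42.3 at 72 h. The peak was at 12 h, where every library lay above every library of the other 4 groups, with a rise of 0.54 ± 0.078 over the control (adjusted p = 1.33e-06). It fell from 12 to 24 h (-0.41) and again from 24 to 48 h (-0.35). The call against the control at 48 h (-0.21) ended without control replicate 1 (-0.19), control replicate 2 (-0.18), control replicate 4 (-0.21), 48 h replicate 3 (-0.16) or 48 h replicate 4 (-0.16). AP4M1, read from the other strand, overlaps 8.94% of the exon bases of MCM7, and how the counting used the strand is not given in the sources used here.

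The values of MCM3 were 71.5, 69.7, 62.7 and 66.9 CPM in the control libraries, 80.3, 87.4, 85.8 and 84.98 at 12 h, 77.6, 80.9, 80.01 and 81.8 at 24 h, 64.4, 60.4, 54.5 and 50.8 at 48 h, and 66.1, 61.2, 63.9 and 61.6 at 72 h. It lay above the control at 12 h (0.32 ± 0.068) and 24 h (0.24) without overlap, and lower at 48 h (-0.24 ± 0.068), where the ranges overlapped. By library size alone the rises at 12 and 24 h were 0.037 and 0.098 and short of the threshold. MCM5 measured 30.3, 33.2, 22.8 and 27.8 CPM in the control libraries, 36.3, 37.6, 30.99 and 31.4 at 12 h, 34.1, 39.1, 34.9 and 35.9 at 24 h, 28.2, 28.9, 24.5 and 22.5 at 48 h, and 26.6, 24.5, 25.9 and 28.99 at 72 h. Its rise at 24 h (0.33 ± 0.10) was followed by a fall from 24 to 48 h (-0.47 ± 0.10), with no overlap in either comparison. By library size alone the rise was 0.19 and short of the threshold. Its call at 12 h (0.26) ended without control replicate 3 (0.16), control replicate 4 (0.25), 12 h replicate 1 (0.23) or 12 h replicate 2 (0.21), and changed sign by library size alone (-0.030).

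MCM4 and MCM2 did not share the early rise. MCM4 stood at 92.7, 89.2, 102 and 92.6 CPM in the control libraries, 89.5, 95.01, 93.5 and 99.9 at 12 h, 91.5, 91.6, 91.7 and 100.1 at 24 h, 74.7, 69.4, 76.3 and 75.7 at 48 h, and 68.3, 68.3, 61.4 and 63.3 at 72 h. The control, 12 h and 24 h groups overlapped, and all libraries at 48 h (-0.35 ± 0.062) and 72 h (-0.53 ± 0.062) lay under them. The values of MCM2 were 30.8, 27.96, 19.7 and 22.97 CPM in the control libraries, 18.1, 16.9, 17.2 and 18.9 at 12 h, 23.1, 23.1, 22.2 and 23.4 at 24 h, 19.5, 22.4, 18.5 and 19.2 at 48 h, and 17.5, 14.4, 16.98 and 18.3 at 72 h. It fell at 12 h (-0.51 ± 0.11) and 72 h (-0.59 ± 0.11), rose between 12 and 24 h (0.37), and its call at 48 h ended without control replicate 1 (-0.25). For MCM2 the control libraries were widely spread, and an antisense gene covers 22.7% of its exon bases. Direct comparison of the times where the calls against the control had opposite signs gave a difference in each case, with MCM3 -0.56 ± 0.068 and MCM7 -0.76 ± 0.078 from 12 to 48 h (adjusted p = 1.31e-07 and 9.41e-09). The times were picked by those opposite calls, which made a difference likely beforehand, so these comparisons give no independent support. In all, 6 members had calls of opposite sign at different times with TMM, MCM3, MCM6, MCM7, POLA2, RFC4 and RRM1, beside 13% of all genes. Fewer of these 6 did so by library size alone, with upper quartiles or with factors per gene.

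**Figure D3:**
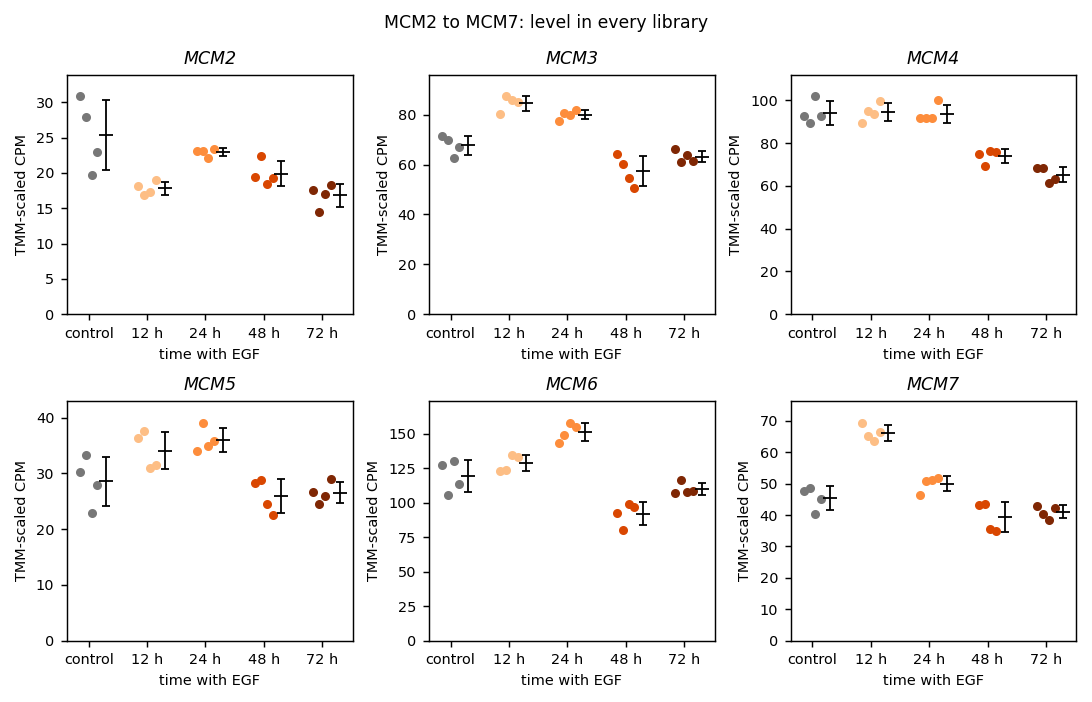
TMM-scaled CPM of MCM2 to MCM7 in every library (points), with the mean and SD of each group (black), from 0 on each axis. MCM6 ran from 143 to 158 CPM at 24 h and from 79.9 to 99.2 at 48 h, and MCM7 from 63.7 to 69.5 at 12 h, above all other groups.

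Per kilobase of exon sequence, which allows levels of different genes to be set side by side, MCM6 had the highest group mean of the 6 subunits in every group, from 22.3 to 36.7 CPM per kb, and MCM3 the next. The lowest was MCM5 in the control and at 48 h (3.89 and 3.54) and MCM2 at the other times (3.43 to 4.68). The highest subunit exceeded the lowest 6.31- to 8.59-fold. These lengths are those of all exons of a gene in GENCODE 29 merged, and not of the transcripts made in these cells.

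Of the 6 helicase activation genes 3 were lower at each of the 4 times, but not the same 3. GINS1 and GINS4 were joined by CDC45 at 12 h and by MCM10 at 24, 48 and 72 h. In addition 1 was higher at 12 and 72 h (GINS3) and 1 at 24 h (GINS2), and none at 48 h. By library size alone none was higher and 5 lower at 12 h, none and 4 at 24 h, and 1 and 5 at 72 h. With upper quartiles the counts were 1 and 5 at 12 h and none and 4 at 24 h. None was higher at 12 and 72 h with factors per gene. With TMM the shares of the 6 called at the 4 times were 66.7%, 66.7%, 50% and 66.7%. Those of all genes were 69.4%, 58.8%, 45.8% and 61.6%. GINS4, a subunit of the GINS complex, stood at 31.8, 28.04, 33.5 and 31.1 CPM in the control libraries, 16.3, 16.2, 17.5 and 18.5 at 12 h, 19.8, 16.9, 17.8 and 17.3 at 24 h, 21.3, 22.4, 21.1 and 21.5 at 48 h, and 12.6, 14.2, 13.3 and 13.99 at 72 h. All EGF libraries lay under all control libraries, with -0.86 ± 0.076 (log2) at 12 h, which was -0.79 ± 0.076 and -0.53 ± 0.074 at the next times and reached -1.20 ± 0.077 at 72 h (adjusted p = 2.42e-12), and the level at 48 h lay above those at 24 and 72 h without overlap. Antisense genes overlap 23.6% of its exon bases. GINS1 was also lower at all 4 times (from -0.43 to -0.64), GINS2 was higher at 24 h (0.18), and GINS3 was higher at 12 h (0.37) and 72 h (0.29). The call of GINS2 ended by library size alone (0.040) and by upper quartiles (0.14). That of GINS3 at 12 h ended by library size alone (0.087). Both calls of GINS3 ended with factors per gene. Per kilobase GINS2 was the highest of the 4 in every group, at 16.4 to 19.7 CPM per kb.

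MCM10, which helps to open the loaded helicase, stood at 18.6, 18.04, 20.8 and 18.8 CPM in the control libraries, 15.5, 18.03, 16.8 and 18.3 at 12 h, 12.2, 12.7, 11.3 and 12.1 at 24 h, 14.8, 14.5, 16.8 and 16.04 at 48 h, and 9.21, 10.1, 12.2 and 11.4 at 72 h. It did not pass at 12 h and was lower at 24 h (-0.66 ± 0.091), 48 h (-0.29 ± 0.089) and 72 h (-0.83 ± 0.092), in each case with all 4 libraries under the control. Between 24 and 48 h MCM10 rose by 0.37, and from 48 to 72 h it fell by 0.54 ± 0.093 on the log2 scale. CDC45, the partner of GINS, was lower at 12 h (-0.49) and had its highest mean at 48 h.

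The fork protection genes TIMELESS and CLSPN, which keep the helicase and the polymerase together and relay checkpoint signals, were both called lower at 12 and 72 h. TIMELESS measured 19.7, 17.7, 14.8 and 17.8 CPM in the control libraries, 8.28, 7.84, 7.24 and 8.46 at 12 h, 10.7, 9.55, 8.46 and 10.3 at 24 h, 16.01, 18.5, 13.2 and 13.6 at 48 h, and 10.2, 10.6, 10.9 and 12.8 at 72 h. It was 2.20-fold lower at 12 h (-1.13 ± 0.12, adjusted p = 6.91e-09), stayed lower at 24 h (-0.84 ± 0.11), overlapped the control at 48 h and was lower again at 72 h (-0.66 ± 0.11). CLSPN stood at 38.6, 36.7, 39.95 and 40.2 CPM in the control libraries, 33.5, 32.8, 35.3 and 36.8 at 12 h, 38.01, 39.9, 38.9 and 40.9 at 24 h, 29.7, 31.01, 28.2 and 29.01 at 48 h, and 32.7, 34.5, 34.4 and 35.1 at 72 h. Its lowest libraries were those at 48 h, all under all others of the series, with -0.40 ± 0.061 against the control (adjusted p = 9.97e-06). The smaller falls at 12 and 72 h ended without control replicate 4 (-0.15), 12 h replicate 1 (-0.15) or 12 h replicate 2 (-0.14) at 12 h and without 72 h replicate 1 (-0.15) at 72 h. So at 48 h TIMELESS lay above its level at 24 h (0.64) and CLSPN under it (-0.42).

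Among the polymerases and primase, 1 of 8 was higher and 4 lower at 12 h, 3 were higher and none lower at 24 h, 2 were lower at 48 h and 3 at 72 h. By library size alone none was higher and 5 lower at 12 h, 1 was higher at 24 h, and 6 were lower at 72 h, and with upper quartiles 6 were also lower at 72 h. At 24 h 1 was also higher with factors per gene. From 12 to 24 h 5 rose and none fell, and from 24 to 48 h 1 rose and 5 fell, or 1 and 2 by library size alone and none and 2 with factors per gene. Of all genes 27.9% rose and 25.9% fell from 12 to 24 h, and 25.9% and 24.3% from 24 to 48 h. Against the control 62.5% of the 8 were called at 12 h with TMM, beside 69.4% of all genes. PRIM1, the catalytic subunit of the primase that starts each Okazaki fragment, had the widest span of all 47 members (2.59-fold between its lowest and highest group mean). The values of PRIM1 were 42.5, 46.2, 51.3 and 45.9 CPM in the control libraries, 21.1, 18.96, 20.7 and 20.5 at 12 h, 49.4, 45.4, 45.6 and 43.7 at 24 h, 49.2, 48.5, 55.1 and 57.6 at 48 h, and 35.6, 41.98, 40.3 and 40.04 at 72 h. The 4 libraries at 12 h lay far under all others, 2.29-fold lower than the control (-1.20 ± 0.078, adjusted p = 2.37e-12), and those at 24 h were among the control values again, a rise of 1.18 ± 0.078 in 12 h. The fall at 72 h (-0.24) ended without 72 h replicate 1 (-0.18). Another coding gene on the same strand covers 14.9% of the exon bases of PRIM1. PRIM2, its partner, did not pass at 12 h and was higher at 24 h (0.35).

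POLA2, the second subunit of the polymerase that works with the primase, stood at 36.7, 31.4, 34.1 and 34.3 CPM in the control libraries, 26.5, 33.7, 25.4 and 26.8 at 12 h, 41.9, 38.9, 38.9 and 41.8 at 24 h, 26.04, 31.1, 26.3 and 31.2 at 48 h, and 34.7, 34.1, 33.2 and 38.8 at 72 h. It was lower at 12 h (-0.28 ± 0.088), where 1 library lay within the control range, and rose from 12 to 24 h (0.52 ± 0.088, adjusted p = 2.77e-05) without overlap. It fell from 24 to 48 h by 0.49 ± 0.087 on the log2 scale. Against the control, the call at 24 h (0.24) ended without control replicate 2 (0.21), by library size alone (0.10) and by upper quartiles (0.20), and that at 48 h (-0.25) without control replicate 1 (-0.22), 48 h replicate 1 (-0.21) or 48 h replicate 3 (-0.21). A coding gene annotated on the same strand shares 35.1% of its exon bases. POLD1, the catalytic subunit of the lagging strand polymerase, stood at 10.1, 14.2, 8.58 and 10.9 CPM in the control libraries, 13.8, 12.2, 12.6 and 10.4 at 12 h, 10.7, 11.02, 8.14 and 8.20 at 24 h, 12.9, 13.1, 7.98 and 9.25 at 48 h, and 8.05, 7.91, 7.26 and 8.30 at 72 h. Its libraries at 72 h lay under all control libraries (-0.48 ± 0.16), and this call ended without control replicate 2 (-0.32). POLA1 was lower at 12, 48 and 72 h (from -0.25 to -0.31), POLE, the leading strand polymerase, was higher at 12 h (0.27) and 24 h (0.35), and POLE2 was lower at 12 h (-0.41). The rise of POLE at 12 h changed sign by library size alone (-0.011). POLD3 was called at none of the 4 times with TMM, and lower at 72 h by library size alone (-0.19) and with factors per gene (-0.46).

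In the sliding clamp and its loader none was higher and 4 of 6 were lower at 12 h (5 by library size alone, 2 with factors per gene), and at 24 h 2 were higher and 2 lower. With TMM 66.7% of the 6 were called at each of these times, beside 69.4% and 58.8% of all genes. PCNA, the ring that holds the polymerases on DNA, measured 811, 676, 879.6 and 745 CPM in the control libraries, 645, 635, 702 and 680.3 at 12 h, 737, 789, 798 and 828 at 24 h, 596, 559, 682 and 670.3 at 48 h, and 623, 702, 646 and 669 at 72 h. The libraries at 24 h overlapped the control, and those at 48 h were lower (-0.31 ± 0.075, adjusted p = 0.00152) with 1 of 4 inside the control range. Between 24 and 48 h PCNA fell by 0.33 ± 0.075 on the log2 scale, a value that was -0.17 and short of the threshold by library size alone, and its call at 12 h ended without control replicate 3 (-0.16).

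RFC3 and RFC4, both small subunits of the loader that opens the clamp, had calls of opposite sign against the control after 12 h. RFC3 stood at 80.4, 59.2, 98.4 and 72.4 CPM in the control libraries, 43.04, 41.5, 48.00 and 46.9 at 12 h, 60.4, 55.1, 58.7 and 60.7 at 24 h, 57.1, 52.1, 64.5 and 63.5 at 48 h, and 43.6, 50.9, 49.7 and 47.9 at 72 h. It was called lower at every time, with -0.79 ± 0.11 at 12 h (adjusted p = 5.97e-07) and -0.69 ± 0.11 at 72 h, and its libraries at these times lay under all control libraries. The values of RFC4 were 32.8, 29.6, 32.95 and 27.5 CPM in the control libraries, 25.9, 26.4, 26.96 and 23.8 at 12 h, 40.98, 40.4, 40.6 and 43.00 at 24 h, 36.1, 31.8, 36.4 and 39.3 at 48 h, and 38.5, 40.8, 42.6 and 45.5 at 72 h. It was lower at 12 h (-0.25 ± 0.078) and higher at 24 h (0.43 ± 0.076) and 72 h (0.44 ± 0.076), without overlap, and the step from 12 to 24 h was 0.68 ± 0.077 (adjusted p = 1.44e-07). The call of RFC4 at 48 h ended without control replicate 4 (0.18) or 48 h replicate 4 (0.18). RFC1, the large subunit, was higher at 24 h (0.58), 48 h (0.24) and 72 h (0.57), RFC5 was lower at 12, 24 and 72 h (from -0.36 to -0.27), and RFC2 was called at none with TMM. Per kilobase the highest loader gene lay 2.40- to 2.98-fold above the lowest.

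On the lagging strand and among the single-strand binding proteins 1 of 5 was higher and 3 lower at 12 h, and from 12 to 24 h 3 rose and 1 fell. In each comparison 80% of the 5 were called, beside 69.4% and 53.7% of all genes. RPA3, the smallest subunit of replication protein A, which coats single-stranded DNA, had the largest fall of all members at 12 h. RPA3 measured 206, 152, 237 and 194 CPM in the control libraries, 77.6, 74.7, 82.7 and 74.6 at 12 h, 109.99, 102, 86.3 and 103 at 24 h, 153, 145, 189 and 191 at 48 h, and 117, 137, 134 and 139 at 72 h. It was 2.55-fold lower at 12 h (-1.35 ± 0.11, adjusted p = 1.94e-10) and still lower at 24 h (-0.97 ± 0.11) and 72 h (-0.58 ± 0.11), with no overlap with the control, while the libraries at 48 h overlapped it. From 24 to 48 h it rose by 0.76 ± 0.11, and the fall after that ended without 72 h replicate 1 (-0.30). RPA2 stood at 50.6, 53.9, 50.02 and 47.8 CPM in the control libraries, 36.9, 32.4, 34.9 and 38.02 at 12 h, 56.3, 50.9, 47.5 and 53.5 at 24 h, 51.04, 46.1, 50.4 and 54.8 at 48 h, and 51.8, 59.3, 55.8 and 56.01 at 72 h. It was lower at 12 h alone (-0.51 ± 0.073, adjusted p = 1.3e-06) and its 3 later groups overlapped the control. RPA1, the large subunit, was called at 24 h alone (0.13), a call that was not kept by library size alone (-0.012). Per kilobase RPA3 exceeded the lowest of the 3 subunits 2.89-fold in the control and 1.36-fold at 12 h. FEN1, which trims the flaps of Okazaki fragments, was higher at 12 h (0.58) and 72 h (0.32), and LIG1, which seals them, was lower at 12 h (-0.46).

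All 5 nucleotide supply genes, like both fork protection genes, were lower at 12 h, where 36.5% of all genes were. The count of 5 was the same by library size alone, by upper quartiles and by DESeq2's size factors, and 4 of 5 with factors per gene. RRM2, the subunit of ribonucleotide reductase that limits its activity in S phase, stood at 521, 528, 607 and 546 CPM in the control libraries, 423, 417, 442 and 441 at 12 h, 309, 309, 283 and 316 at 24 h, 489, 436, 472 and 505 at 48 h, and 333, 361, 371 and 394 at 72 h. All EGF libraries lay under all control libraries at all 4 times, with the lowest levels at 24 h (-0.86 ± 0.064, adjusted p = 5.41e-11). RRM2 then rose from 24 to 48 h by 0.64 ± 0.064 and fell from 48 to 72 h by 0.38 ± 0.064 on the log2 scale, in both steps without overlap. With factors per gene its value at 48 h against the control was 0.053 in place of -0.21. Another coding gene on the same strand shares 20.2% of its exon bases.

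RRM1, the other subunit of the enzyme, was lowest at 12 h and rose after it. The values of RRM1 were 115, 128, 134 and 133 CPM in the control libraries, 90.9, 91.8, 92.5 and 96.7 at 12 h, 132, 121, 128 and 120.5 at 24 h, 147, 139, 156 and 159 at 48 h, and 141, 155, 152 and 151 at 72 h. It was lower at 12 h (-0.46 ± 0.062) and higher at 48 h (0.24 ± 0.062) and 72 h (0.23 ± 0.062), each without overlap, and it rose by 0.69 ± 0.062 between 12 and 48 h (adjusted p = 8.12e-10). At 72 h RRM1 was thus higher and RRM2 lower than in the control. TK1, the thymidine kinase of the salvage pathway, stood at 44.7, 55.3, 36.6 and 46.95 CPM in the control libraries, 32.6, 32.5, 30.2 and 30.4 at 12 h, 26.7, 26.5, 19.8 and 23.6 at 24 h, 50.1, 52.8, 36.5 and 37.8 at 48 h, and 36.7, 29.5, 35.1 and 39.5 at 72 h. It was lower at 12 h (-0.55 ± 0.13) and 24 h (-0.92 ± 0.13), and between 24 and 48 h it rose 1.83-fold (0.87 ± 0.13, adjusted p = 7.32e-06), where its libraries spread over the control range. The fall at 72 h ended without control replicate 2 (-0.28) or 72 h replicate 2 (-0.31). DUT, which removes dUTP, was lower at 12 h (-0.78), 24 h (-0.65) and 72 h (-0.44), and TYMS, the maker of thymidylate, was lower at 12 h (-0.28) and 72 h (-0.18). ENOSF1, read from the other strand, overlaps 39.1% of the exon sequence of TYMS.

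**Figure D4:**
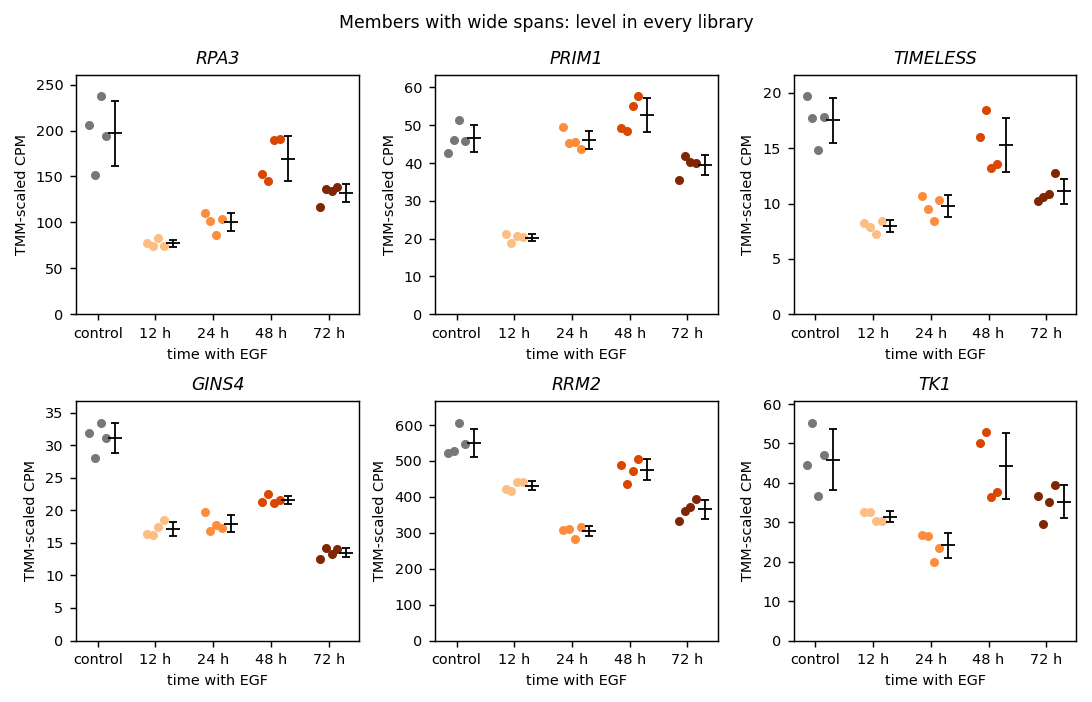
TMM-scaled CPM of RPA3, PRIM1, TIMELESS, GINS4, RRM2 and TK1 in every library (points), with the mean and SD of each group (black), from 0 on each axis. RPA3, PRIM1 and TIMELESS were lowest at 12 h, RRM2 and TK1 at 24 h and GINS4 at 72 h, and in each the level at 48 h lay above that at 24 h.

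In the last role, SLBP, which binds the histone mRNAs of S phase, was called at 12 h with TMM. It was the one of 4 members called, or 25%, beside 69.4% of all genes. Library size alone gave 1 higher and 3 lower and upper quartiles 1 and 2. SLBP measured 116, 111, 128 and 112 CPM in the control libraries, 157, 162, 167 and 170.4 at 12 h, 143, 149, 153 and 165 at 24 h, 112, 101, 124 and 117 at 48 h, and 145, 149, 133 and 144 at 72 h. It was higher without overlap at 12 h (0.49 ± 0.068, adjusted p = 9.76e-07), 24 h (0.38 ± 0.068) and 72 h (0.29 ± 0.068), and at 48 h its libraries overlapped the controls. UNG, the glycosylase that removes uracil from DNA, stood at 42.4, 46.9, 41.4 and 42.8 CPM in the control libraries, 38.2, 37.9, 41.2 and 42.2 at 12 h, 37.3, 42.8, 39.2 and 40.7 at 24 h, 38.7, 38.3, 34.04 and 38.7 at 48 h, and 28.1, 30.1, 29.04 and 32.7 at 72 h. It was lowest at 72 h (-0.54 ± 0.071, adjusted p = 5.76e-07), under all libraries of the other groups, and its call at 48 h ended without 48 h replicate 3 (-0.17). At 12 h it did not pass, but did by library size alone (-0.41) and by upper quartiles (-0.29). Of the chromatin assembly factor, CHAF1B was higher at 24 h (0.34) and CHAF1A was called at no time. By library size alone it was lower at 12 h (-0.26), 24 h (-0.24) and 72 h (-0.24).

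Between members with and without the E2F letters, the gap between the medians was widest in the step from 24 to 48 h, among the 7 comparisons. Of the 18 with the letters none rose and 12 fell in that step, with a median log2 fold change of -0.28, and of the 23 matched members without them 9 rose and 6 fell, with a median of 0.0021. Of all genes tested 25.9% rose and 24.3% fell in that step. By library size alone the counts were 1 and 5 with the letters and 10 and 2 without. Factors per gene gave none and 6 with the letters and 5 and 5 without, and the medians of -0.25 and -0.096 lay closer together. From 12 to 24 h 11 of the 18 rose and 2 fell, and 9 of the 23 rose and 5 fell, where 27.9% of all genes rose and 25.9% fell. From 48 to 72 h 4 of the 18 rose and 1 fell, and 4 of the 23 rose and 11 fell, where 17.9% of all genes rose and 17.9% fell. The split was drawn with the values known, and no test was made of it. Whether other genes with the letters moved likewise was not tested. RPA3, MCM4, MCM5, GINS4, RPA2 and POLD3 are not in the split.

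**Figure D5:**
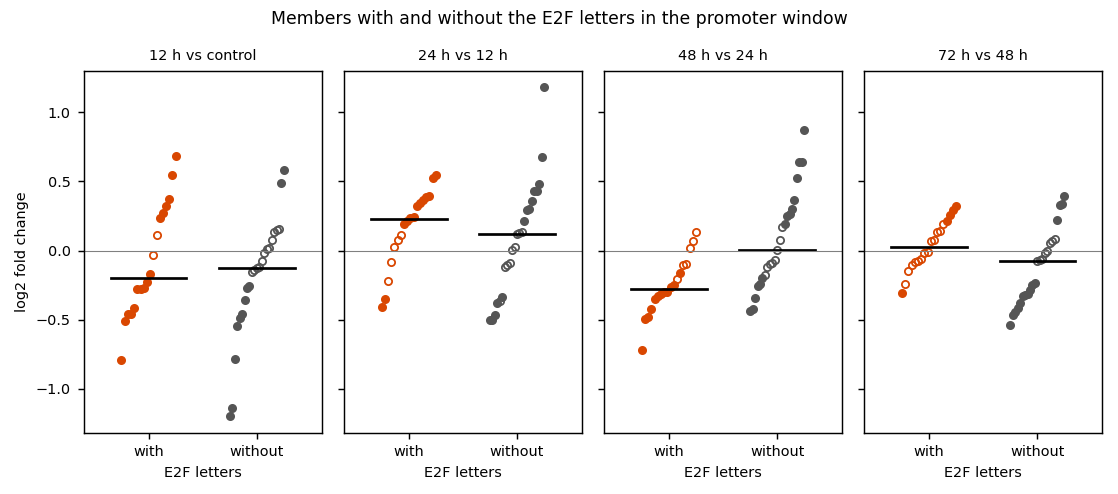
Log2 fold change of each member (points, filled where the adjusted p was under 0.05) with and without the E2F letters in its promoter window, in 4 comparisons, with the median as a black line. From 24 to 48 h the 18 members with the letters had a median of -0.28 and the 23 without 0.0021.

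Other genes of the pathway gave a frame for these values. Of 30 other replication factors 6 were higher and 13 lower at 12 h, 6 and 12 at 24 h, 1 and 6 at 48 h, and 3 and 13 at 72 h. The shares called either way were 63.3%, 60%, 23.3% and 53.3%, beside 69.4%, 58.8%, 45.8% and 61.6% of all genes. ASF1A, a histone chaperone, fell by 1.32 on the log2 scale at 12 h, DBF4, the activator of the CDC7 kinase that fires origins, was -0.36 at 12 h and -0.84 at 72 h, and POLD4, the smallest subunit of polymerase delta, was 2.27 at 12 h and 2.39 at 72 h. Of 10 other nucleotide supply genes 1 was higher and 7 lower at 12 h and 2 and 7 at 72 h. These made 80% and 90%, beside 69.4% and 61.6% of all genes.

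Among 21 regulators of the step from G1 to S phase 10 were higher and 7 lower at 12 h, 10 and 7 at 24 h, 3 and 5 at 48 h, and 10 and 6 at 72 h. The shares called were 81%, 81%, 38.1% and 76.2%, beside 69.4%, 58.8%, 45.8% and 61.6% of all genes. CDKN1A, the inhibitor p21 of cyclin-dependent kinases, rose by 3.14 ± 0.12 at 12 h, 1.40 at 48 h and 2.81 at 72 h (adjusted p = 2.23e-15 at 72 h). CCNE1, cyclin E1, rose by 1.29, 1.48, 0.41 and 1.34 at the 4 times, and CCND1, cyclin D1, by 1.72 at 12 h. SKP2, which marks p27 for breakdown, was lower at 12 h (-0.46) and at 72 h (-1.12). E2F1 itself did not pass at any time (0.22 at 12 h, adjusted p = 0.142), E2F3 was higher at 12 h (0.92), and E2F8, a repressor of the family, was lower at 24 h (-0.86).

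Of the 25 mitotic genes 2 were higher and 20 lower at 12 h, none and 18 at 24 h, none and 10 at 48 h, and none and 25 at 72 h, where their median log2 fold change was -1.13 and that of the 47 replication genes -0.16. The shares called were 88%, 72%, 40% and 100%, beside 69.4%, 58.8%, 45.8% and 61.6% of all genes. The log2 fold change at 72 h was -1.75 for CENPF, -1.63 for TOP2A and -1.46 for CCNB1, cyclin B1. These lists were read beside the members as counts and medians, with no test between lists.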

How the data were processed

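RNA-seq of MDA-MB-468 cells was read from the deposited gene tables of 20 libraries. The authors deposited estimated counts per gene, rounded to whole numbers, and the 10 tables hold identical counts for 60271 genes. They also deposited normalised values, used here as a score only for the alternative with factors per gene, and their own fold changes and p-values, which were not used. Per the labels, libraries were made with the Lexogen CORALL mRNA kit and the build was hg38, and DESeq2 was named. The aligner, the annotation and any use of molecular identifiers are not given in the sources used here.

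Genes were kept by filterByExpr (16522 genes), scaled by TMM and tested with edgeR 4.0.16 (R 4.3.3) in 1 robust quasi-likelihood fit of all 20 libraries, with p adjusted by Benjamini-Hochberg for all 16522 genes, a threshold of 0.05 and a prior count of 0.125 for log2 fold changes. CPM values were scaled by TMM. Totals of 15611961 to 25856953 counts per library gave 127 counts or more for every member in every library. Replicate libraries of a group differed by 3.47 to 55.9 times the variance that counting alone gives. Simulated data for 12 h against the control held 16051 genes, 200 of them changed and drawn from genes of all levels. The fit recovered 26.5% of 1.25-fold, 69.4% of 1.5-fold, 76% of 2-fold and 87.5% of 3-fold changes. In the real data far more genes passed and no member was low in counts, so these shares are not those of the members. A member not called may still have changed. Values per library are given for the 2 members of each role with the widest span of group means, for MCM2 to MCM7, PCNA, RRM2, CDT1, GMNN and CDC6, and for members with calls of opposite sign against the control; others are given by ranges and counts, and by name with their values where they complete a role, a choice made after those values were seen. Members and lists were chosen with earlier results of these data known. Alternatives covered the scaling, the filter, the test (DESeq2 1.42.0), the threshold, the libraries in the fit and each library left out. Exon lengths and overlaps come from GENCODE 29, and promoter windows from RefSeq on GRCh38.p14.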

Additional observations from a re-analysis of the deposited data

Results flagged for a closer look

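In 135 groups of 4 values, those of the members given per library, 3 held a library far from the other 3, where chance gives about 1 in 20 groups, or 7. MCM4 stood at 100.1 CPM in replicate 4 at 24 h, beside 91.5 to 91.7 in the others. MCM6 stood at 116.6 CPM in replicate 2 at 72 h, beside 107 to 109. UNG stood at 34.0 CPM in replicate 3 at 48 h, beside 38.3 to 38.7, and its call at 48 h ended without that library.

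For 6 members the response to EGF with TMM had calls of opposite sign at different times. Calls of both signs were not kept by library size alone for MCM3 and POLA2, or with upper quartiles for MCM7 and POLA2. With factors per gene they were not kept for MCM3, MCM7, POLA2 and RFC4. The difference between the times was tested by edgeR's quasi-likelihood test. The times were picked by their opposite calls, which made a difference likely beforehand, so the p-values give no independent support. The log2 difference of 48 h from 12 h was -0.56 ± 0.068 (SE) for MCM3 (adjusted p = 1.31e-07), -0.76 ± 0.078 for MCM7 (adjusted p = 9.41e-09) and 0.69 ± 0.062 for RRM1 (adjusted p = 8.12e-10). The difference of 48 h from 24 h was -0.72 ± 0.074 for MCM6 (adjusted p = 3.48e-08). For POLA2 the difference of 24 h from 12 h was 0.52 ± 0.088 (adjusted p = 2.77e-05), and for RFC4 that of 72 h from 12 h was 0.70 ± 0.077 (adjusted p = 3.57e-08).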

How the results depend on the processing

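Single calls were not followed under the test against a 1.5-fold change, the threshold of 0.01 or another prior count. Of 126 calls of members given with values per library, 78 held under every other alternative. The remaining 48 were lost or reversed under at least 1, among them 26 lost without 1 library. A sign changed 106 times over these other alternatives, 4 of them in a value past the threshold (CDC6 and MCM5 at 12 h by library size alone, RRM2 at 48 h and MCM4 from 48 to 72 h with factors per gene), and the cause was not tested. Signs changed with scaling by library size alone, ORC6 at 12 h (-0.21), CDC6 at 12 h (-0.046), MCM4 at 12 h (-0.28), MCM5 at 12 h (-0.030), MCM6 at 12 h (-0.17), POLD1 at 12 h (-0.13), MCM7 at 24 h (-0.0062), CLSPN at 24 h (-0.12), PCNA at 24 h (-0.12), RPA2 at 24 h (-0.10), POLA2 at 72 h (-0.033), MCM3 12 to 24 h (0.061), MCM4 12 to 24 h (0.13), SLBP 12 to 24 h (0.036), CDT1 24 to 48 h (0.052), GMNN 24 to 48 h (0.034), RPA2 24 to 48 h (0.11), UNG 24 to 48 h (0.059), GMNN 48 to 72 h (-0.035), MCM5 48 to 72 h (-0.058), MCM7 48 to 72 h (-0.022) and PCNA 48 to 72 h (-0.014). With upper quartiles, ORC6 at 12 h (-0.085), MCM4 at 12 h (-0.16), MCM6 at 12 h (-0.051), POLD1 at 12 h (-0.0072), CLSPN at 24 h (-0.025), PCNA at 24 h (-0.026), RPA2 at 24 h (-0.0048), MCM3 12 to 24 h (0.036), MCM4 12 to 24 h (0.10), SLBP 12 to 24 h (0.011), RPA2 24 to 48 h (0.021) and MCM5 48 to 72 h (-0.014). With DESeq2's size factors, UNG 12 to 24 h (-0.015) and RRM1 48 to 72 h (0.016). With factors per gene, MCM4 at 24 h (0.12), CLSPN at 24 h (-0.30), PCNA at 24 h (-0.028), RRM1 at 24 h (0.017), POLD1 at 48 h (0.060), RPA2 at 48 h (-0.040), RRM2 at 48 h (0.053), MCM5 at 72 h (0.089), GMNN 12 to 24 h (-0.0099), MCM4 12 to 24 h (0.097), GINS4 12 to 24 h (-0.059) and MCM4 48 to 72 h (0.16). Without a filter beyond 1 count, RPA2 at 48 h (-0.0021), GMNN 12 to 24 h (-0.010) and UNG 12 to 24 h (-0.034). With at least 10 counts in every library, MCM4 at 12 h (-0.031), POLD1 at 48 h (0.0062), MCM4 12 to 24 h (0.029) and RRM1 48 to 72 h (0.011). In fits of only the 8 libraries compared, RPA2 at 48 h (-0.0028) and MCM4 12 to 24 h (0.0073). With the replicate block, RPA2 at 48 h (-0.0016). By the DESeq2 Wald test, RPA2 at 48 h (-0.0027), UNG 12 to 24 h (-0.019) and RRM1 48 to 72 h (0.017). Shifts in the median of the members were held against 0.025, the standard error of a difference between group means, taken from the replicates. The median moved by more than this in these cases: with scaling by library size alone -0.43 (at 12 h), -0.12 (at 24 h), -0.24 (at 72 h), 0.27 (12 to 24 h), 0.034 (24 to 48 h) and -0.15 (48 to 72 h), with upper quartiles -0.31 (at 12 h), -0.024 (at 24 h), 0.25 (12 to 24 h), -0.059 (24 to 48 h) and -0.10 (48 to 72 h), with factors per gene 0.19 (12 to 24 h), -0.16 (24 to 48 h) and -0.022 (48 to 72 h), without a filter beyond 1 count -0.10 (at 12 h) and 0.091 (12 to 24 h), with at least 10 counts in every library -0.18 (at 12 h), -0.073 (at 48 h), -0.11 (at 72 h), 0.17 (12 to 24 h) and -0.087 (24 to 48 h), by the DESeq2 Wald test -0.11 (at 12 h) and -0.038 (48 to 72 h).

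Tested against a change of 1.5-fold by glmTreat, 6, 5, 0 and 2 members passed at 12, 24, 48 and 72 h, and 1, 1 and 0 in the steps 12 to 24, 24 to 48 and 48 to 72 h. The other replication factors then gave 4, 1, 1 and 5 calls at the 4 times, the G1/S regulators 10, 6, 2 and 8, the mitotic genes 10, 3 and 0 at 12, 24 and 48 h, and the other nucleotide supply genes 4, 1, 0 and 1. At an adjusted p under 0.01, 14 members passed from 48 to 72 h and 3 other nucleotide supply genes at 48 h. With factors per gene, an alternative added after the data were seen, 20 members passed from 24 to 48 h. In fits of only the 8 libraries compared, 9 members passed at 48 h. The other nucleotide supply genes called at 48 h were 4 in those fits, with factors per gene and without a filter.

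Leaving out 1 library changed the sign of RPA2 at 48 h (-0.040 to 0.043), MCM4 at 12 h (-0.018 to 0.049), CLSPN at 24 h (-0.0048 to 0.043), PCNA at 24 h (-0.042 to 0.084), CDC6 at 48 h (-0.034 to 0.097), POLD1 at 48 h (-0.14 to 0.12), TK1 at 48 h (-0.15 to 0.049), GMNN at 24 h (-0.21 to 0.014), MCM4 at 24 h (-0.036 to 0.036), PRIM1 at 24 h (-0.054 to 0.037), SLBP at 48 h (-0.089 to 0.0090), UNG 12 to 24 h (-0.033 to 0.035), GMNN 12 to 24 h (-0.037 to 0.076), MCM4 12 to 24 h (-0.046 to 0.015), RFC3 24 to 48 h (-0.029 to 0.071), GMNN 48 to 72 h (-0.011 to 0.12), RRM1 48 to 72 h (-0.040 to 0.033), MCM5 48 to 72 h (-0.034 to 0.084) and POLA2 at 72 h (-0.0024 to 0.079). The median of the members then ran from -0.18 to -0.11 (at 12 h), -0.089 to -0.035 (48 to 72 h) and -0.15 to -0.11 (24 to 48 h). The other replication factors called at 48 h ran from 7 to 11, the latter without control replicate 2.

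Replicate numbers gave no pairing: deviations of 40 same-number pairs correlated at -0.239 to 0.348, and 8 of 20 libraries correlated best with their own number. With the replicate block 31, 26, 20 and 29 members passed against the control and 30, 31 and 23 in the successive steps.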

Other observations

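The place of a library within its group was uneven over the members. Of the 47 members, 22 had their lowest value at 72 h in replicate 1 and 21 their lowest at 48 h in replicate 2. In the control, replicate 3 was the highest in 21 members and the lowest in 16, while replicate 4 was the highest in 2 and the lowest in 5. The 2 libraries with the most lowest values were among those with more mitochondrial counts, 15.9% in replicate 1 at 72 h and 16.9% in replicate 2 at 48 h, but replicate 4 at 72 h, with 16.4%, was the lowest of its group in 5 members. Whether the mitochondrial share bears on the values was not tested.

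The group with the highest mean was the control for 13 members, 12 h for 10, 24 h for 16, and 48 h and 72 h for 4 each. The lowest mean fell at 12 h for 16 members, at 72 h for 13, at 48 h for 10, in the control for 5 and at 24 h for 3, the last being RFC5, RRM2 and TK1.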
